A study of Mus musculus with 4 samples.

Results

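The genes described here are 44 genes that act in DNA replication and S phase, chosen by name from known function: the MCM helicase and its loaders, the replicative polymerases, the clamp and its loader, the enzymes that join and repair new strands, the enzymes that supply nucleotides, the factors that rebuild chromatin behind the fork, and the regulators of entry into S phase. Of these 44 genes, 43 were measured, by 80 probe sets, among 12393 genes represented on the array. The 1 gene without a probe set in the annotation was Chaf1a. Expression was measured in mouse mammary macrophages on 4 arrays, 1 for each group, to compare macrophages with and without the transcription factor Ets2 in tumors and in tumor-free glands. The 4 groups were macrophages of remodeling glands without tumor from wild-type mice, macrophages of remodeling glands with 2 copies of Ets2 deleted, macrophages of early mammary tumors of the PyMT model, in which polyoma middle T acts as the oncogene, with 1 copy of Ets2 according to the source label and wild type according to the title, and macrophages of early PyMT tumors with 2 copies deleted. In all 4 groups the mice carried YFP in their macrophages and the YFP-positive cells were collected by flow sorting. The Cre driver, the deleted exons, the number of animals per array and their age were not given in the sources used here. With 1 array per group no replicate check and no test could be made, so every difference below compares 1 array with another.

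Before a cell copies its genome, the origin recognition complex together with Cdc6 and Cdt1 loads the MCM helicase ring onto DNA, and the ring is later switched on by Cdc45 and the GINS complex. DNA polymerase alpha with its primase then starts each strand, polymerases delta and epsilon extend it while held by the PCNA clamp, and Fen1 and Lig1 close the gaps on the lagging strand. Most of these genes are transcribed at the border of G1 and S phase under E2F transcription factors, and their mRNA is widely used as a sign of dividing cells, which in tissues include macrophages.

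Values are log2 expression as deposited, and a difference of 1 is 2-fold. Array medians over all 22690 probe sets lay between 5.98 and 6.30. The targeted gene read 13.24 and 12.97 on the remodeling arrays labelled Ets2-expressing and Ets2-deficient, and 12.77 and 12.67 on the tumor arrays. The deficient arrays were thus only 0.28 and 0.09 lower, and since the deleted part of Ets2 is not given, this probe set does not check the labels. "Deficient" and "expressing" below therefore name the labels of the arrays. The 11 measured macrophage markers of 12 lay above the median on every array, with a log2 summed level between 15.69 and 15.77.

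The replication genes read higher on the deficient than on the expressing array in both settings. In remodeling macrophages 36 of the 43 measured genes were higher and 5 lower, with a median difference of 0.39, where 54.2% of all measured genes were above 0 and their median was 0.04. In tumor macrophages 32 of the 43 were higher and 9 lower, with a median of 0.22, where 49.8% of all genes were above 0 and their median was 0.00. The differences were small: those of at least 1.5-fold upward numbered 14 in remodeling macrophages, beside 4.99% of all genes, and 16 in tumor macrophages, beside 7.71%. In sorted bulk samples, fewer dividing cells and less of each mRNA per cell cannot be told apart.

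The stretch of DNA where E2F factors are known to act on such genes was read from RefSeq promoters (GRCm38.p6, 250 bases before to 50 after each start), which were found for 39 of the 44 genes, Chaf1a among them. The E2F words searched were TTCCCGC and its variants with other middle bases, namely TTCGCGC as well as the word TTGCCGC and also the word TTGGCGC, on both strands, with overlapping words counted separately. At least 1 word lay in the promoters of 24 of the 39 genes (61.5%), of 17.2% of 9887 array genes with a promoter, and of 5 of 37 mitosis genes (13.5%). Of the 13 genes that were bright and at least 1.5-fold higher on the tumor array labelled Ets2-deficient, 11 held a word, and for 6 of them a word lay before the start. The stretches before those 6 starts are printed because they hold the words of genes that differed in tumor macrophages, with the E2F words in capitals. They are Mcm5 (chr8:75109334-75109508, plus strand), Mcm6 (chr1:128359706-128359880, minus strand), Mcm7 (chr5:138171267-138171441, minus strand), Cdc6 (chr11:98907976-98908150, plus strand), Prim1 (chr10:128015040-128015214, plus strand) and Uhrf1 (chr17:56303162-56303336, plus strand), each written 5′ to 3′ in the direction of the gene and ending at the base before the start. The table lists a pair of starts for Mcm7 and a pair for Uhrf1. The stretch shown belongs to the downstream start of Mcm7 and to the upstream start of Uhrf1. For both genes the promoter of the start not shown also held an E2F word.
Mcm5: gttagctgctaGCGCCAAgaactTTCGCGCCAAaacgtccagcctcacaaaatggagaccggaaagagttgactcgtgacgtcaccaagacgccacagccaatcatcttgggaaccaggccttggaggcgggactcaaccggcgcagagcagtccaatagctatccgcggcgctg
Mcm6: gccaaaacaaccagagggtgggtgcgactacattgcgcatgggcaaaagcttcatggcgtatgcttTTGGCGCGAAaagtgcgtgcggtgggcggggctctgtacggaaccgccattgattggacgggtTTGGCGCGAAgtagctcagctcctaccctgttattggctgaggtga
Mcm7: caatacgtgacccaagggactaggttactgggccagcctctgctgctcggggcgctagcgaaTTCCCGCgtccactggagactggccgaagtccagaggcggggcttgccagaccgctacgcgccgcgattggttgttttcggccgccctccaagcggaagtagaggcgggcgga
Cdc6: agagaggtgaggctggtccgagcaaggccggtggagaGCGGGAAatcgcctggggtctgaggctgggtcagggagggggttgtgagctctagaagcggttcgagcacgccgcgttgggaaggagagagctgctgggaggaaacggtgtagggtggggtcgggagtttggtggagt
Prim1: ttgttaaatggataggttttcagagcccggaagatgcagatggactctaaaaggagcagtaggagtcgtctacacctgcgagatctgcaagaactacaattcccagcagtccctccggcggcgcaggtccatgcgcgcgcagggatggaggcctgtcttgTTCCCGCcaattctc
Uhrf1: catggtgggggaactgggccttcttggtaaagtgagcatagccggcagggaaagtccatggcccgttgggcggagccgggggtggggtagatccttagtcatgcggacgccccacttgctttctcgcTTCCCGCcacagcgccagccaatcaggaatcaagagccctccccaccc

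Mcm6 and Mcm5 held 4 and 3 words in these stretches, some of them overlapping in longer capital runs, and the other 4 genes held 1 word each. For contrast, the same stretch is printed for Rpa2 and Tk1. Rpa2 (chr4:132768185-132768359, plus strand) holds a word but was lower on the tumor array labelled Ets2-deficient. Tk1 (chr11:117826015-117826189, minus strand) holds none of the words in this stretch but was at least 1.5-fold higher in both settings.
Rpa2: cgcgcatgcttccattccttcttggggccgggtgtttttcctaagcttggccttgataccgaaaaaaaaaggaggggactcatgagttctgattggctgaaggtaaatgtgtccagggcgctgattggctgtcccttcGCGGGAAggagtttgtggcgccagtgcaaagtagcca
Tk1: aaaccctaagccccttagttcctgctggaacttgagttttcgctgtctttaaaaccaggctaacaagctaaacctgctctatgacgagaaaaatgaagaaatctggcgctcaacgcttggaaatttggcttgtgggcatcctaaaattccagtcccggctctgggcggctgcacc

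A match of letters is a description of the sequence and shows no binding. In remodeling macrophages 6 of 10 bright members at least 1.5-fold higher held a word, as did 17 of 28 of the other members. In tumor macrophages the counts were 11 of 13 and 12 of 25. The members held CCAAT in 59.0% of genes, beside 42.3% of array genes and 73.0% of mitosis genes. The words TTTGAA and, with 1 other base, TTCGAA, known from promoters of late cell cycle genes (the CHR element), lay in 17.9% of the members, 17.3% of array genes and 75.7% of mitosis genes. Of the 48 E2F words in the promoters of the members, 32 lay within 100 bases of the start. The window itself ends 250 bases before and 50 after the start. Word positions in other genes were not counted, so no gathering near the start is read from this.

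**Figure D1:**
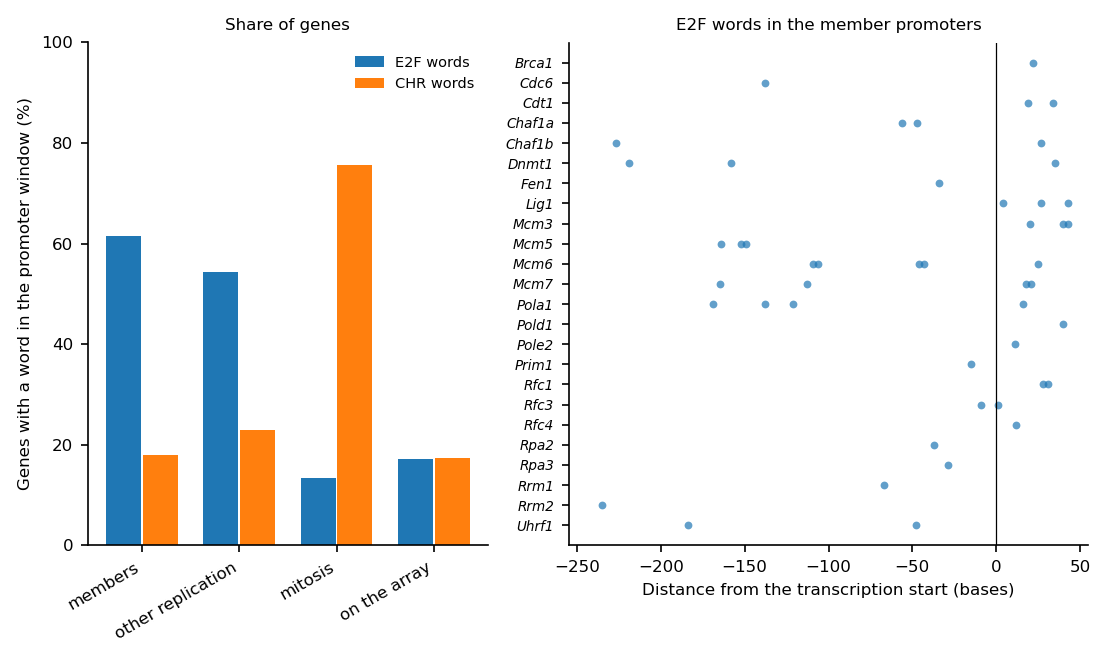
Left, share of genes (%) whose RefSeq promoter holds an E2F word or a CHR word, for the members (61.5% and 17.9%), the other replication genes, mitosis genes (13.5% and 75.7%) and all array genes. Right, 1 point for each E2F word of a member, at its distance in bases from the start (line at 0). The window runs from 250 bases before to 50 after the start, and 32 of 48 words lie within 100 bases of it.

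Among the genes that load and switch on the helicase, the 6 subunits of the MCM ring did not all differ alike. Mcm7 read 7.78 on the remodeling array labelled Ets2-expressing, 8.70 on the remodeling array labelled Ets2-deficient, 8.59 on the tumor array labelled Ets2-expressing and 9.43 on the tumor array labelled Ets2-deficient. It was 1.89-fold higher on the deficient array in remodeling macrophages and 1.80-fold in tumor macrophages. All 4 of its probe sets were higher on the deficient array in both settings, by 0.24 to 0.92 and by 0.59 to 0.84.

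Mcm2 read 7.63, 8.37, 8.51 and 8.61 in that order of arrays. The remodeling array labelled Ets2-expressing thus stood 1.66-fold below its partner and the other 3 lay close together. The dim second probe set of Mcm2 differed more in tumor macrophages, where it was higher by 0.39, than in remodeling macrophages, at 0.09. Mcm5 read 7.03, 7.33, 6.80 and 7.74, and Mcm6 read 7.94, 8.19, 8.07 and 8.79. For both subunits the tumor array labelled Ets2-deficient was the highest, 1.91-fold above its partner for Mcm5 and 1.65-fold for Mcm6, while the remodeling difference was 1.23-fold and 1.19-fold. The remaining subunits were not higher in tumor macrophages by their brightest probe sets. Mcm4 read 10.95, 11.15, 11.26 and 10.85, and was 1.33-fold lower on the tumor array labelled Ets2-deficient. Mcm3 read 8.85, 8.89, 9.46 and 9.21, and was 1.19-fold lower on that array. Its direction there is not settled, since the 4 bright probe sets of Mcm3 stood at -0.25, -0.13, 0.02 and 0.18.

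Of the factors that load the ring, Cdt1 read 8.97, 9.46, 9.13 and 9.87, which was 1.41-fold higher on the deficient array in remodeling and 1.66-fold in tumor macrophages. The 2 bright probe sets of Cdt1 were higher on the deficient array in both settings, and the dim one was lower by 0.26 in tumor macrophages. Cdc6 read 6.90, 6.65, 5.67 and 6.39, with the tumor array labelled Ets2-expressing the lowest of the 4. Its difference was 1.64-fold upward in tumor macrophages and 1.19-fold downward in remodeling macrophages.

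Mcm10, which joins the helicase at its activation and helps to recruit the polymerases, gave the largest difference of all members. It read 5.20, 5.94, 4.88 and 6.40, and the tumor array labelled Ets2-deficient was 2.87-fold above its partner. Only on that array did it reach the array median, and on the other 3 it lay below. The second probe set of Mcm10 was higher by 1.01 in tumor macrophages and lower by 0.29 in remodeling macrophages, below the median on all 4 arrays. Cdc45, the helicase cofactor, read 5.25, 5.60, 5.15 and 6.07 and stayed below the median on every array.

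**Figure D2:**
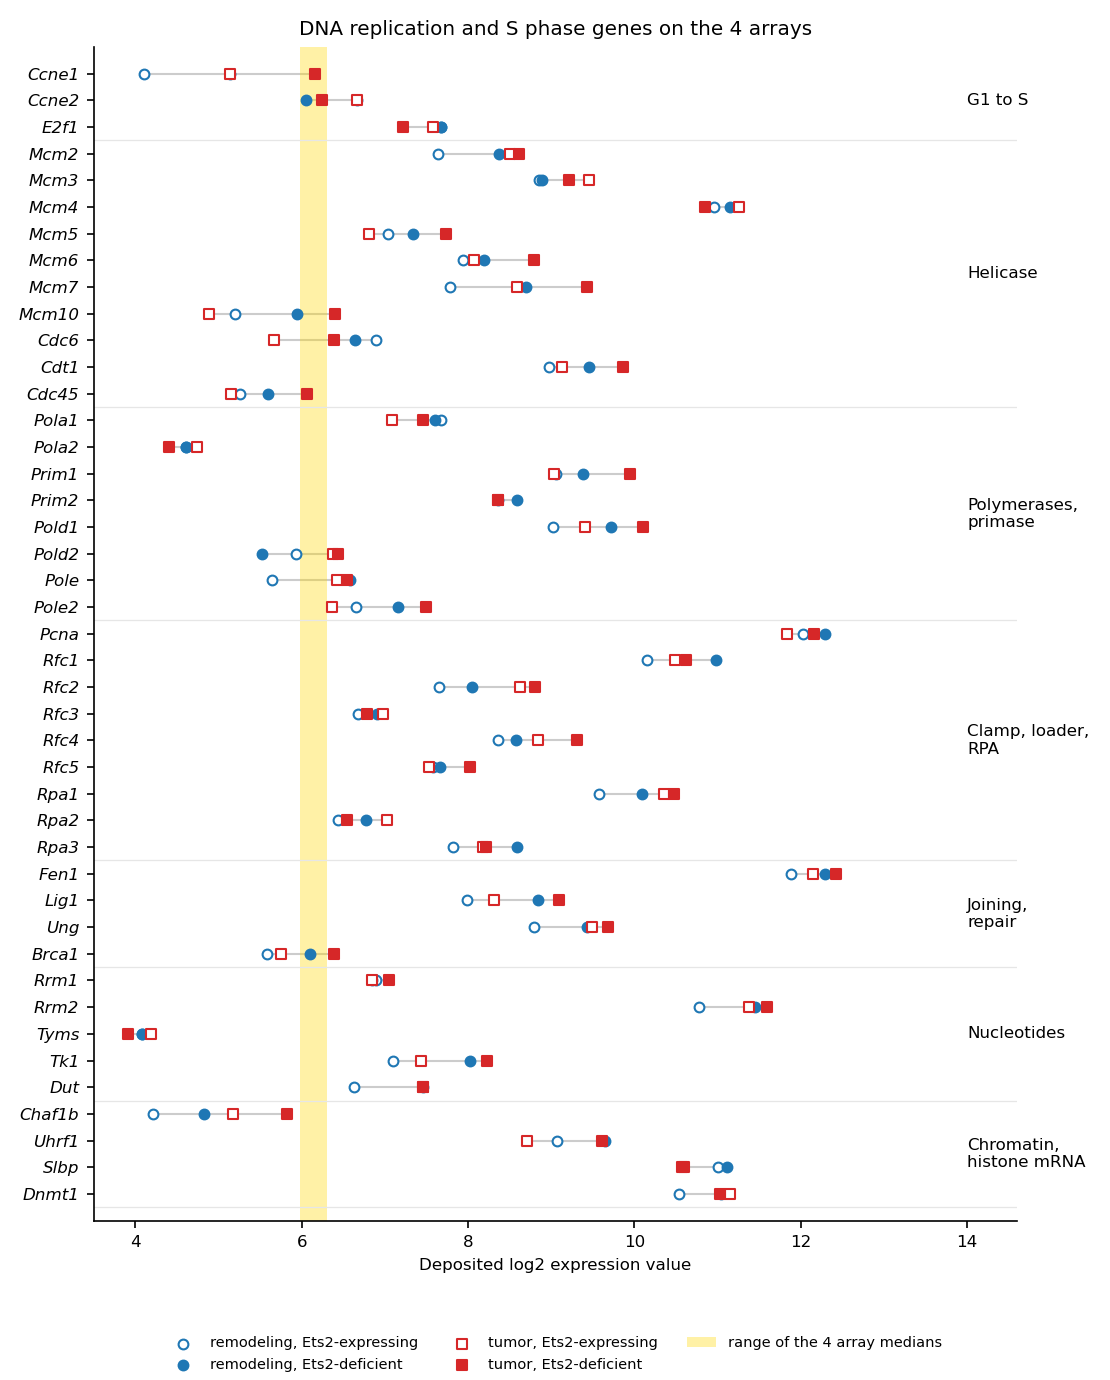
Deposited log2 value of each of the 43 genes on each of the 4 arrays, grouped by role, with 1 point per array and the probe set of highest mean. The remodeling array labelled Ets2-expressing has the lowest value for 24 genes and the tumor array labelled Ets2-deficient the highest for 24, circles are remodeling and squares tumor arrays, filled marks are labelled Ets2-deficient, the band spans the array medians, and equal values hide each other.

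Among the polymerases, Pold1, the catalytic subunit of polymerase delta, read 9.02, 9.71, 9.40 and 10.10. It was 1.62-fold higher on the deficient array in both settings. Its second probe set was higher by 0.38 in remodeling and by 0.09 in tumor macrophages. Both deficient arrays thus lay above both expressing arrays for the probe set of higher mean.

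The catalytic and second subunits of polymerase epsilon each differed most in another setting. Pole read 5.64, 6.58, 6.42 and 6.54, so that 3 arrays were close and the remodeling array labelled Ets2-expressing was 1.93-fold below its partner. Pole2 read 6.65, 7.16, 6.36 and 7.49, which was 2.19-fold higher on the deficient array in tumor macrophages and 1.42-fold in remodeling macrophages. Prim1, the catalytic subunit of primase, read 9.06, 9.39, 9.04 and 9.95, and was 1.88-fold higher on the tumor array labelled Ets2-deficient. The other primase subunit, Prim2, held 8.36 on 3 arrays and 8.59 on the remaining one, the remodeling array labelled Ets2-deficient. The second bright probe set of Prim2 was level in remodeling macrophages, at 0.017, and stood at -0.253 in tumor macrophages. Pola1, the catalytic subunit of polymerase alpha, read 7.68, 7.60, 7.09 and 7.46, and its remodeling difference of -0.07 was above 0 when arrays were centred on their medians or on hybridization controls. Pola2 was dim on all arrays, between 4.41 and 4.75, and Pold2, an accessory subunit of polymerase delta, was lower on the deficient array by 0.41 in remodeling macrophages, where both arrays were below their medians.

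The genes of the clamp, its loader and the single-strand binding proteins were all higher on the deficient array in remodeling macrophages. These 9 genes had differences above 0, with a median of 0.34, and 2 of them were at least 1.5-fold higher. In remodeling macrophages 55.3% of all counted genes were above 0 and 6.53% at least 1.5-fold higher. In tumor macrophages 7 of 9 were above 0, beside 53.1%, with a median of 0.13, and none reached 1.5-fold, beside 9.27%. No test of this difference was possible with these arrays.

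Rfc1, the large subunit of the clamp loader, read 10.15, 10.98, 10.49 and 10.62, and Rpa3, the small subunit of the single-strand binding complex, read 7.82, 8.59, 8.17 and 8.21. Both were highest on the remodeling array labelled Ets2-deficient, 1.78-fold and 1.71-fold above its partner. Pcna, the sliding clamp, read 12.03, 12.29, 11.84 and 12.15, which was 1.20-fold higher on the deficient array in remodeling and 1.24-fold in tumor macrophages. The other loader subunits Rfc2, Rfc3, Rfc4 and Rfc5 were higher by 0.39, 0.23, 0.21 and 0.09 in remodeling macrophages. In tumor macrophages Rfc5 and Rfc4 were higher by 0.50 and 0.46, Rfc2 by 0.18, and Rfc3 stood at -0.19. Bright second probe sets went the other way in tumor macrophages for Rfc4, at -0.10, and for Rfc1, at -0.38 beside 0.13. The second probe set of Rfc3 was higher on the deficient array in both settings. It stood at 1.02 in remodeling macrophages and at 1.06 in tumor macrophages, where it was dim on both arrays. Rpa1, the large single-strand binding subunit, read 9.58, 10.09, 10.35 and 10.48. Rpa2, the middle subunit, read 6.44, 6.78, 7.02 and 6.54 and was 1.39-fold lower on the tumor array labelled Ets2-deficient. The dim second probe set of Rpa2 was 0.10 higher there.

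The 4 genes of strand joining and repair were higher on the deficient array in both settings by their brightest probe sets, beside 31.1% of all genes counted in both. Lig1, the ligase that seals Okazaki fragments, read 7.98, 8.84, 8.31 and 9.09, which was 1.81-fold higher on the deficient array in remodeling and 1.71-fold in tumor macrophages. Fen1, the flap nuclease that trims those fragments, read 11.88, 12.30, 12.15 and 12.42, a difference of 1.33-fold and 1.21-fold. Both deficient arrays were above both expressing arrays for Lig1 and for Fen1. Ung, which removes uracil from DNA, read 8.79, 9.43, 9.49 and 9.68, with a 1.56-fold difference in remodeling macrophages and 1.14-fold in tumor macrophages. Brca1, which acts in repair by homologous recombination, read 5.58, 6.10, 5.75 and 6.38, near the array medians. Its 3 other probe sets were below the median on all arrays. They stood at 0.17, 0.19 and 0 in remodeling and, in the same order, at 0.32, -0.028 and -0.53 in tumor macrophages.

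Of the enzymes that supply nucleotides, Tk1, the thymidine kinase of dividing cells, read 7.09, 8.03, 7.43 and 8.22. Both deficient arrays were above both expressing arrays, by 1.91-fold in remodeling and 1.73-fold in tumor macrophages. Rrm2, the small subunit of ribonucleotide reductase, read 10.78, 11.45, 11.38 and 11.60, so that the remodeling array labelled Ets2-expressing was the low one, 1.59-fold below its partner. Its other bright probe set was higher on the deficient array by 0.59 in remodeling and 0.80 in tumor macrophages, and its dim one lower by 0.73 in remodeling macrophages. Rrm1, the large subunit, read 6.89, 6.85, 6.85 and 7.05, and its remodeling difference of -0.04 was above 0 when arrays were centred on their medians or on hybridization controls. Dut, which removes dUTP, read 6.63 on the remodeling array labelled Ets2-expressing and the same 7.46 on the other 3, and its dim probe set was lower on the deficient array by 0.56 and 0.45. Tyms, the thymidylate synthase, was below the median on all arrays, between 3.91 and 4.19.

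Of the genes that rebuild chromatin, Uhrf1, which recognises newly copied, hemimethylated DNA and brings in Dnmt1, read 9.07, 9.65, 8.71 and 9.61. By this brighter probe set both deficient arrays were above both expressing arrays, by 1.49-fold in remodeling and 1.87-fold in tumor macrophages. The dim second probe set of Uhrf1 was 0.33 lower on the deficient array in remodeling and 0.53 higher in tumor macrophages. Dnmt1, the maintenance DNA methyltransferase, read 10.54, 11.04, 11.15 and 11.03, with the remodeling array labelled Ets2-expressing the lowest. Chaf1b, a histone chaperone subunit, read 4.21, 4.83, 5.17 and 5.82, below the median on every array. Slbp, which binds the stem-loop of histone mRNA, read 11.01, 11.12, 10.57 and 10.60, with both remodeling arrays above both tumor arrays.

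The 3 regulators of entry into S phase did not share a direction. Ccne2, a cyclin E, read 6.66, 6.06, 6.66 and 6.25, and was 1.52-fold lower on the deficient array in remodeling macrophages and 1.33-fold lower in tumor macrophages. It was the 1 member below 0 in both settings, of 36 counted in both, beside 21.3% of all genes counted in both. E2f1, a factor that drives many of these genes, read 7.67, 7.68, 7.58 and 7.21, level in remodeling macrophages and 1.29-fold lower on the tumor array labelled Ets2-deficient. Ccne1, the other cyclin E, read 4.10, 5.14, 5.14 and 6.16. Its differences were 2.05-fold and 2.03-fold upward, with all values below the array medians.

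A member was counted in a comparison where at least its brighter array reached the array median, and calls were read at 2-fold and at 1.5-fold (0.585 on the log2 scale). In remodeling macrophages 36 members were counted and 32 of them were above 0 (88.9%), beside 55.3% of all counted genes. At least 1.5-fold higher were 11, beside 6.53%, namely Mcm2, Mcm7, Rrm2, Tk1, Pold1, Pole, Rfc1, Rpa3, Lig1, Dut and Ung. At least 1.5-fold lower was Ccne2 alone, beside 9.73%. At 2-fold none was higher, beside 1.31%, and none lower, beside 5.17%.

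In tumor macrophages 38 members were counted and 29 were above 0 (76.3%), beside 53.1% of all counted genes. Their median was 0.21, against 0.03 over all genes, and 0.13 against -0.05 with arrays centred on their medians. At least 1.5-fold higher were 13, beside 9.27%, namely Mcm5, Mcm6, Mcm7, Mcm10, Tk1, Cdc6, Cdt1, Prim1, Pold1, Pole2, Lig1, Uhrf1 and Brca1. The second bright probe set of Mcm6 did not reach 1.5-fold, at 0.265. None was 1.5-fold lower, beside 5.99%. At 2-fold Mcm10 and Pole2 were higher, 2 genes beside 2.23%, and none was lower, beside 0.761%. The remodeling count at 2-fold depends on the scaling: it was 6 with arrays centred on their medians or on hybridization controls, and 1 with quantile normalization. The median of all counted genes moved too, from 0.05 as deposited to 0.24, 0.25 and 0.07 in that order. The 2-fold share of all genes under these scalings is not given here. In tumor macrophages the 2-fold count was 2 under each of these scalings. The members counted include those bright on 1 array of the pair only, such as Mcm10 and Cdc6, which makes these counts descriptions.

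**Figure D3:**
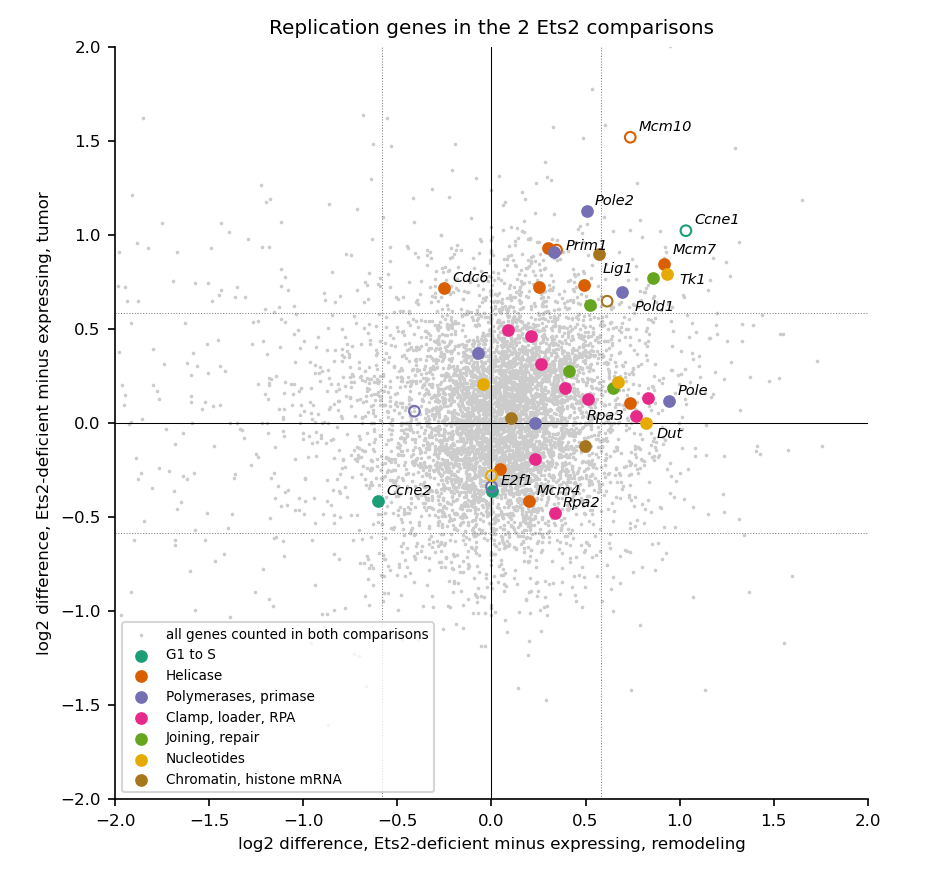
Log2 difference, array labelled Ets2-deficient minus array labelled Ets2-expressing, in remodeling (x axis) and tumor macrophages (y axis). Coloured points are the 43 genes by role, open where a gene was not counted in both comparisons, grey points are genes counted in both (those beyond the axes are not drawn), and dotted lines mark 1.5-fold; 28 of the 43 genes lie above 0 on both axes.

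The comparisons in the 2 settings share no array. Above 0 in both were 28 of the 43 measured members, beside 28.1% of all measured genes, and at least 1.5-fold higher in both were 7, beside 0.726%. Of the counted members the latter were Mcm7, Tk1, Lig1 and Pold1, 4 of 36, beside 0.905% of all genes counted in both. Across the 43 members the differences in the 2 settings had a Pearson correlation of 0.418, and across all measured genes 0.0302. Genes on the same arrays share amplification and normalization, so these are descriptions.

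The order of the 4 arrays was shared by many members. The remodeling array labelled Ets2-expressing alone held the lowest value for 24 of 43, beside 33.1% of all genes, and the tumor array labelled Ets2-deficient alone the highest for 24, beside 28.1%. For 16 members both held, beside 14.7%.

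**Figure D4:**
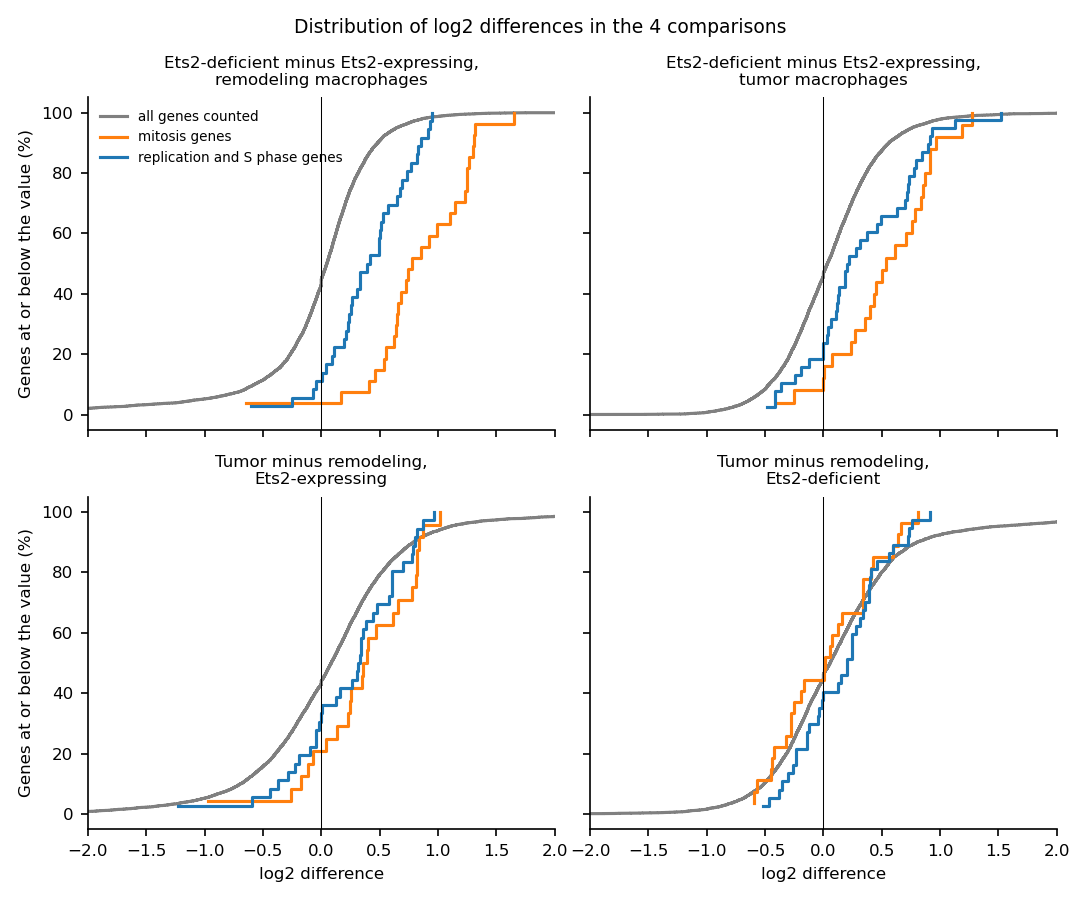
Cumulative share of genes (%) against the log2 difference for the counted replication genes, mitosis genes and all genes, in the Ets2 comparisons (top) and in tumor minus remodeling (bottom). In the top panels the replication genes have medians of 0.40 against 0.05 for all genes in remodeling and 0.21 against 0.03 in tumor macrophages, and the bottom right median is below 0 with arrays centred on medians or hybridization controls.

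Compared between settings on the arrays labelled Ets2-expressing, 29 of the 43 members were higher in tumor macrophages, beside 56.6% of all measured genes, and the median was 0.30 against 0.08 over all genes. Among 36 counted members, 24 were above 0, beside 55.9%, 10 were at least 1.5-fold higher, beside 16.9%, and Cdc6 and Pola1 were at least 1.5-fold lower, beside 13.0%. Past 2-fold there was only Cdc6, 2.34-fold lower, beside 5.20% lower and 6.18% higher over all genes. The largest upward differences were those of Rfc2, 1.95-fold, and Mcm2, 1.83-fold.

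On the arrays labelled Ets2-deficient, 26 of the 43 members were higher in tumor macrophages, beside 51.0% of all measured genes. Of 37 counted members 22 were above 0, beside 53.7%, and 5 were at least 1.5-fold higher, beside 15.9%. None was 1.5-fold lower, beside 7.76%, and none passed 2-fold, beside 7.61% upward and 1.61% downward. The counted median of 0.21 was below 0 when arrays were centred on their medians or on hybridization controls, so this comparison has no settled direction. These comparisons share arrays with the Ets2 comparisons above.

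Probe sets that read the same mRNA give the error that could be measured, which leaves out differences between animals, sorts and amplifications. In remodeling macrophages 16 members had several bright probe sets, and for all 16 every bright probe set was above 0, while 60.7% of all such genes had bright probe sets of the same sign. The median standard deviation between them was 0.13 for members and 0.16 for all genes, highest for Rfc3 at 0.56. In tumor macrophages 13 members had several bright probe sets, of which 9 had the same sign and 7 were all above 0, beside 54.3% with the same sign over all genes. Their median standard deviation was 0.18, beside 0.22, highest for Rrm2 at 0.41.

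**Figure D5:**
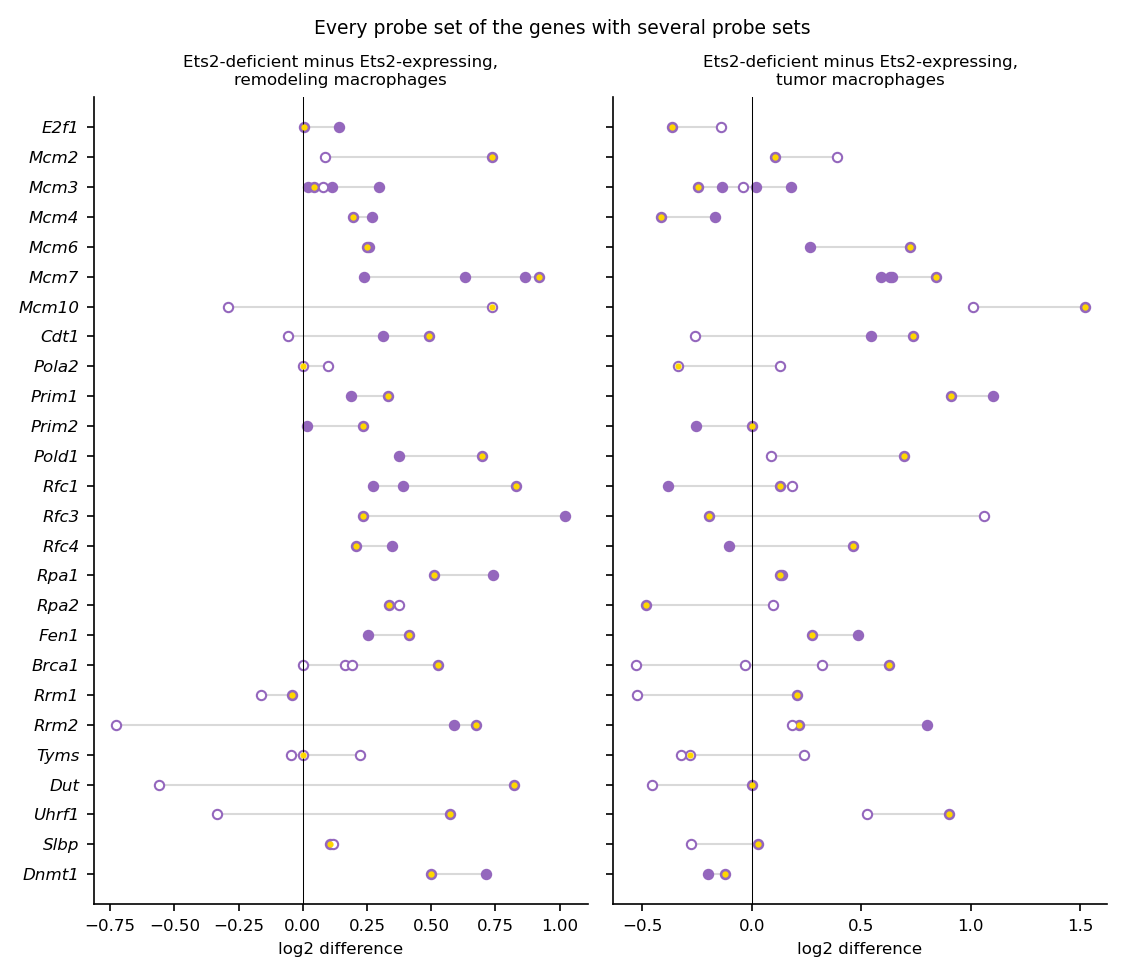
Log2 difference, Ets2-deficient minus Ets2-expressing, of each probe set of the 26 members with several, in remodeling and in tumor macrophages, filled where counted, open where dim, and with a yellow centre for the probe set that represents the gene. All filled points of the 16 members with several of them lie above 0 in remodeling macrophages, as do those of 7 of 13 in tumor macrophages.

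Other genes of the same process were also mostly higher on the deficient arrays. Of 49 further replication and S phase genes, 36 were measured. In remodeling macrophages 26 of 30 counted were above 0, beside 55.3% of all genes, with a median of 0.29. At least 1.5-fold higher were 7, beside 6.53%, and lower none, beside 9.73%. The largest were Ccna2, the cyclin of S and G2 phase, at 0.96, and Gins1, a GINS subunit, at 0.83. In tumor macrophages 23 of 31 were above 0, beside 53.1%, with a median of 0.28 and 6 at least 1.5-fold higher, beside 9.27%. Past 2-fold was Cdk2, the kinase partner of cyclins E and A, which read 6.38, 6.55, 5.32 and 6.55 and stood low on the tumor array labelled Ets2-expressing, as Cdc6 did.

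Mitosis genes, which act after replication, had larger median differences than the members in the same direction. In remodeling macrophages 26 of 27 counted mitosis genes were above 0, beside 55.3% of all genes. Of these 27, 21 were at least 1.5-fold higher, beside 6.53%, and 10 at least 2-fold higher, beside 1.31%. Their median was 0.78, beside 0.40 for the members. In tumor macrophages 22 of 25 were above 0, beside 53.1%, 12 were 1.5-fold higher, beside 9.27%, and the median was 0.54 beside 0.21. The difference between the lists could not be tested with 1 array per group.

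Markers of other cells also differed between the paired arrays. Their log2 summed levels follow in the order remodeling expressing, remodeling deficient, tumor expressing and tumor deficient. B cell markers (8 of 9 measured) summed to 10.34, 11.33, 11.51 and 11.44, lowest on the array that was also lowest for most members, with Pax5 below the 25th percentile on the first and last. Fibroblast markers (10 of 10) summed to 14.37, 12.55, 13.34 and 13.34, highest on that array, and none lay below the 25th percentile. Mast cell markers (7 of 7) summed to 10.53, 8.08, 9.41 and 8.90, with Fcer1a below that percentile on all arrays and Ms4a2 on the last 3. Epithelial markers (18 of 18) summed to 10.17, 9.38, 13.61 and 14.47 and were above the median for 4, 3, 16 and 16. Krt14, Elf3 and Elf5 on the first array, Krt7, Elf3 and Csn2 on the second, Elf3 on the third and none on the last lay below the 25th percentile. Neutrophil markers (9 of 11) summed to 13.73, 13.15, 12.67 and 14.08, with Elane below that percentile on all arrays and Mpo on the remodeling arrays. T and NK cell markers (9 of 12) summed to 11.85, 11.66, 12.34 and 12.17, with Ncr1 below it on all arrays, Gzmb on the first 3 and Gzma on the third. Endothelial markers (7 of 7) summed to 8.87, 7.70, 8.28 and 8.15, with Tie1 below it on the first array and Emcn on the second. The 3' minus 5' signal of Actb, a measure of RNA and amplification quality, was 2.72, 2.96, 3.30 and 3.54 in that order of arrays, that of Gapdh 1.61, 1.80, 2.45 and 2.27, and that of Tfrc 5.75, 5.96, 5.03 and 5.27, so that the 3 controls did not share an order. The part of these cells and of RNA quality in the results on the replication genes was not tested.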

How the data were processed

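Each array held amplified, biotin-labelled cDNA from about 10 ng of RNA of sorted macrophages, per the labels' protocols. The log2 expression values were used as deposited by the authors. Per the submitters' processing notes GCOS and RMA were used. Their versions, roles and order, and whether other arrays entered the normalization, are not given in the sources used here. No sample column was left out. Of the probe sets naming 1 gene only, the brightest on average stood for the gene, and 1 probe set listing a member (Tyms) with another gene was left out. Of the members, 17 had 1 probe set and 26 several.

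Differences are between single arrays, so the number of arrays limits the precision and no test was run. Alternatives were centring on array medians or on 18 hybridization controls, quantile normalization, other probe-set rules, other brightness filters and a longer E2F word. Members, lists and comparisons were chosen with earlier results of these data known. Any member may be named, with Ets2, and of the other lists up to 4 genes a comparison past 2-fold or, with none past it, up to 2 past 1.5-fold; markers are named only beside a result. The procedure was tested on simulated data. Promoters were matched by symbol to a RefSeq table. A planned motif count in proteins was not run, since protein sequences were not used here. Tools were Python 3.11.15, pandas 2.3.3, numpy 2.4.6 and matplotlib 3.10.9.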

Additional observations from a re-analysis of the deposited data

Results flagged for a closer look

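For 3 members the difference between the arrays labelled Ets2-deficient and Ets2-expressing lay on opposite sides of 0 in tumor and remodeling macrophages, each time by more than the usual spread between probe sets in the values as deposited. The tumor difference minus the remodeling difference was 0.97 for Cdc6, which was lower on the deficient array by 0.25 in remodeling and higher by 0.72 in tumor macrophages. The remodeling difference of Cdc6 was inside that spread under other scalings, at -0.06 with arrays centred on their medians, -0.05 with centring on hybridization controls and -0.11 with quantile normalization. The tumor difference minus the remodeling difference was -0.82 for Rpa2, higher by 0.34 and lower by 0.48, and -0.61 for Mcm4, higher by 0.20 and lower by 0.41. The second probe set of Mcm4 had the same signs, higher by 0.27 and lower by 0.17, whereas the dim second probe set of Rpa2 was higher in both settings, by 0.38 and 0.10, and Cdc6 had 1 probe set. The difference between the settings was not tested for any of the 3, with 1 array per group.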

How the results depend on the processing

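The median difference of the counted members stayed above 0 under all alternatives run in both Ets2 comparisons and between the settings on the Ets2-expressing arrays. In the tumor Ets2 comparison it was 0.21 as deposited and ran from 0.13 with arrays centred on their medians to 0.28 with the filter at the 75th percentile. In tumor minus remodeling on the Ets2-deficient arrays it was 0.21 but -0.12 with arrays centred on their medians. Above 0 were then 13 of 38 counted members instead of 22 of 37. The median was -0.022 with centring on hybridization controls. Centring on medians moved the median of all counted genes from 0.05 to 0.24 in the remodeling Ets2 comparison and from 0.06 to -0.26 in that comparison. The members lay 0.35 above all genes in the remodeling Ets2 comparison before and after, with a median of 0.60 under either centring. Members at least 2-fold apart there then numbered 6 under either centring and 1 with quantile normalization, with the probe set of lowest mean and with no brightness filter, instead of 0. Members at least 1.5-fold apart there, 12 as reported, were 19 with control centring. The share of all counted genes at least 1.5-fold higher rose as well, from 6.53% to 15.1%. The members 1.5-fold apart were 5, beside 3.51% of all genes higher, where the brighter array had to reach its 75th percentile. That filter leaves fewer genes. With it 15 of 15 counted members were above 0, beside 57.1% of all genes, instead of 32 of 36, beside 55.3%. In the tumor Ets2 comparison 13 of 38 counted members were 1.5-fold apart, all of them higher, where 9.27% of all genes were. With the mean over probe sets 8 of 33 were, beside 7.73% of all genes. The number was 7 of 23 with the probe set of lowest mean, beside 10.8%, and 6 of 17 past the 75th percentile, beside 5.96%. Above 0 were 29 of 38 counted members (76.3%), beside 53.1% of all genes. With the probe set of lowest mean 18 of 23 were (78.3%, beside 53.1%), and past the 75th percentile 14 of 17 (82.4%, beside 53.2%). At 2-fold 2 were apart, beside 0 past the 75th percentile and 1 where both arrays had to reach their medians. In tumor minus remodeling, Ets2-expressing, 12 of 36 were 1.5-fold apart, beside 7 of 33 with the mean and 5 of 15 past the 75th percentile. Of all genes 16.9%, 14.1% and 10.3% were 1.5-fold higher in that order. Above 0 were 24 of 36 members, beside 15 of 22 with the lowest mean and 11 of 15 past the 75th percentile. At 2-fold 1 was apart, beside 2 with no filter and 0 with either stricter filter. In tumor minus remodeling, Ets2-deficient, 5 of 37 were 1.5-fold apart. With the mean 3 of 32 were, with the lowest mean 3 of 25, and past the 75th percentile 2 of 17. Of all genes 15.9%, 13.5%, 16.4% and 10.3% were 1.5-fold higher in that order. Above 0 were 22 of 37 members, beside 14 of 25 with the lowest mean and 11 of 17 past the 75th percentile. At 2-fold 0 were apart, beside 1 with no filter. With the probe set of lowest mean, remodeling differences turned negative for Rrm2 (-0.73), Dut (-0.56), Uhrf1 (-0.33), Mcm10 (-0.29) and Cdt1 (-0.06). Tumor differences above 0 turned negative for Rrm1 (-0.525), Slbp (-0.28), Cdt1 (-0.26), Rfc4 (-0.10) and Brca1 (-0.028). Tumor differences below 0 turned positive for Rfc3 (1.06), Pola2 (0.13) and Rpa2 (0.10). All but that of Rfc4 came from dim probe sets. E2F words with 1 more T in front were held by 33.3% of the members instead of 61.5%, and by 4.07% of array genes. No paired analysis was possible because each group has 1 array and the labels carry no replicate numbers, and no array could be left out. Genes below the median of their arrays have the least certain differences.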

Other observations

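Inhibitors of S phase entry, all 15 measured, did not share a direction. Of 12 counted in the remodeling Ets2 comparison 7 were above 0, beside 55.3% of all counted genes, with a median of 0.02. Of 12 in the tumor comparison 4 were, beside 53.1%, with a median of -0.03. Cdkn1b, the inhibitor p27 of cyclin-dependent kinases, read 9.82 and 10.07 on the remodeling arrays labelled Ets2-expressing and Ets2-deficient, and 9.96 and 9.33 on the tumor arrays. Cdkn1c, the related inhibitor p57, read 6.46 and 5.65 on the remodeling arrays and 5.65 and 5.49 on the tumor arrays.

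Of the 80 probe sets of the members, 12 held the identical value on at least 2 arrays, beside 12.9% of all probe sets. Dut with 7.46 on 3 arrays, Prim2 with 8.36 on 3 and Ccne1 with 5.14 on 2 are among them.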
